A study of Mus musculus with 6 samples.

Results

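Kdm1a and its paralogue Kdm1b are the 2 genes described here, out of 23770 gene rows measured in mouse MLL-AF9 acute myeloid leukaemia cells in which Kdm1a was the target of the knockdown. They were taken by identifier, ENSMUSG00000036940 for Kdm1a and ENSMUSG00000038080 for Kdm1b. The samples were 3 Kdm1a KD and 3 control samples, each hybridised to 1 array. All 6 came from murine leukaemia cells on the C57BL/6 background that carried the MLL-AF9 fusion and had been enriched for leukemia stem cells (LSCs), the fraction that propagates the disease. Cryopreserved cells were thawed, spun with viral supernatant and cultured overnight, and 40 ng of RNA was amplified per sample. The labels name neither the hairpin or construct, nor the control virus, nor the time to RNA collection. They speak of 2 animals for 3 samples, so samples within a group can share an animal, and the spread behind each p-value may be narrower than that between animals.

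KDM1A, also called LSD1, is a flavin-dependent amine oxidase that removes methyl groups from lysine 4 of histone H3. It does not remove the trimethyl mark, which is left to the jumonji enzymes, and it acts on nucleosomes as part of the CoREST complex with histone deacetylases. In blood cells it is brought to DNA by the repressors GFI1 and GFI1B. KDM1B, also called LSD2, is the closest relative of KDM1A and shares its catalytic mechanism, but it works with the nucleosome-binding protein GLYR1 instead of CoREST and is best known for its part in setting maternal imprints in mouse oocytes.

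Both groups had similar array medians. For the gene rows these were 5.19 to 5.26 in Kdm1a KD and 5.12 to 5.22 in control samples on the log2 scale. The median log2 difference over all rows was -0.02. Upper quartiles of the gene rows were 6.65, 6.71 and 6.90 in Kdm1a KD samples, against 6.74, 6.92 and 6.95 in control samples. They were lower in Kdm1a KD at each replicate number. Whether this contributes to the small falls described below was not tested. The arrays numbered 1 in both groups stood apart: the myeloid progenitor receptor gene Kit had a log2 value of 5.08 in Kdm1a KD replicate 1 and 5.37 in control replicate 1, while its other 4 values lay between 7.37 and 7.58. As the mean of its probesets in control samples, each of the 7 measured myeloid markers lay at or above percentile 60.7 of all genes. The 2 measured B cell markers lay at or below percentile 13.8, the 3 T cell markers at or below 50.2 and the 3 endothelial and stromal markers at or below 55.9, and no marker differed between the groups at the adjusted threshold in limma (smallest adjusted p = 0.894). The tables carry no detection calls, so a dim gene or probeset has no stated lower limit.

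The deposited gene table pairs its identifiers with no symbols, and the identity of both rows was checked against a second deposited table, which holds 1 value per probeset, a small group of probes within an exon region. The platform annotation lists 23 probesets under Aof2, the older symbol of Kdm1a, and 23 under Aof1, the older symbol of Kdm1b. For Kdm1a the gene row differed from the mean of these probesets by at most 0.04 in control and 0.27 in Kdm1a KD arrays. For Kdm1b the largest gap on any array was 0.05. Rows and annotated probesets therefore gave nearly the same profile over the 6 arrays for each gene.

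The targeted gene was strongly reduced. The Kdm1a row had log2 values of 6.37, 6.27 and 6.33 in Kdm1a KD samples, against 8.03, 8.12 and 8.12 in control samples. The groups lay far apart and every array sat close to its group mean, with SDs of 0.0464 in Kdm1a KD and 0.0489 in control samples (n = 3 each). Set against the control mean, the knockdown arrays kept 30.3%, 28.4% and 29.5% of the signal. Kdm1a fell by 1.77 on the log2 scale (SE 0.115, limma adjusted p = 0.0193), and the mean left was 29.4%, with a 95% interval of 24.4% to 35.4%. The 9 differences between a knockdown and a control array ranged from -1.85 to -1.67. In bulk samples, fewer cells that express a gene and less RNA per cell cannot be told apart.

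Among all rows, 0.00421% passed the adjusted threshold of 0.05 with a lower value, which is this 1 row, and 0% with a higher one. Kdm1a ranked first by p and the third by size of the fall, so the larger falls belonged to rows with a wider spread. Its pooled within-group SD of 0.0477 was among the smallest in the table, with 0.905% of rows below it. The call rested on all 6 arrays: with any 1 of them left out, the log2 difference lay between -1.80 and -1.74 and the limma adjusted p between 0.135 and 0.285. After quantile normalization it was -1.65 with an adjusted p of 0.0505. With the replicate number as a fixed block it was -1.77 with an adjusted p of 0.163.

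The paralogue was lower by a smaller amount that did not pass. The Kdm1b row had log2 values of 5.64, 5.22 and 5.55 in Kdm1a KD samples, against 5.92, 5.84 and 5.93 in control samples. All knockdown arrays lay below all control arrays, and knockdown replicate 2 was the lowest of the 6. A lower value without overlap was seen in 6.07% of all rows, so Kdm1b was 1 of 1444 such rows. The log2 difference was -0.42 (SE 0.148), which is 74.6% of the control level with an unadjusted 95% interval of 58.6% to 94.8%. It had an unadjusted p of 0.0232 and an adjusted p of 0.904 in limma. Lower rows at an unadjusted p under 0.05 made up 3.53% of the table. The SD was 0.222 in Kdm1a KD and 0.0509 in control samples (n = 3 each), and without knockdown replicate 2 the difference was -0.30.

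**Figure D1:**
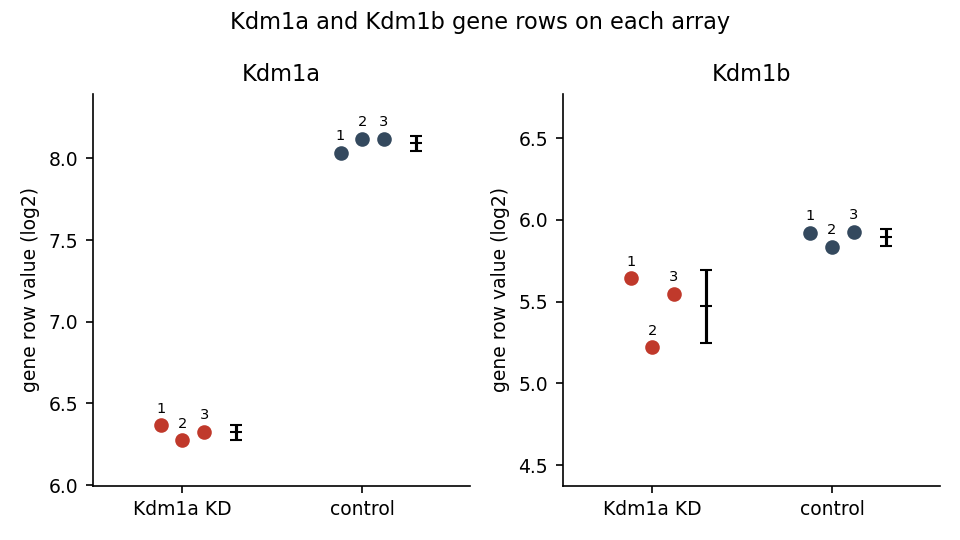
Log2 values of the Kdm1a (left) and Kdm1b (right) gene rows on each array, with Kdm1a KD left of control, replicate numbers above the points, and bars for mean ± SD (n = 3); both vertical axes span the same range. The Kdm1a groups are separated by a log2 difference of -1.77 and the Kdm1b groups by -0.42, with knockdown replicate 2 lowest for both genes.

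**Figure D2:**
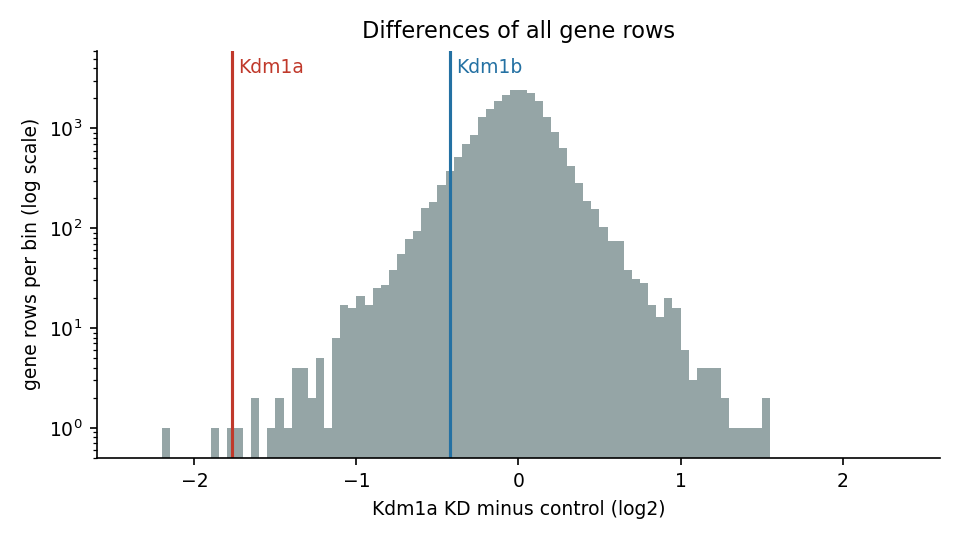
Number of gene rows (log scale) by log2 difference, Kdm1a KD minus control, for all 23770 rows, with vertical lines at the 2 genes. Kdm1a at -1.77 lies at the far left edge, with 2 rows beyond it, while 5.15% of rows lie further left than Kdm1b at -0.42.

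The differences of the 2 rows were then set against each other. As the value of Kdm1a minus that of Kdm1b, which has no meaning as a comparison of their levels, the arrays gave 0.72, 1.05 and 0.78 in Kdm1a KD samples. The same quantity was 2.11, 2.28 and 2.19 in control samples. The groups did not overlap, and their means differed by -1.34, so Kdm1a signal relative to Kdm1b signal was 2.54-fold lower in Kdm1a KD samples. An exact two-sided permutation test gave p = 0.1, the smallest that 3 against 3 arrays allow, so this test cannot pass 0.05.

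The lower Kdm1a signal was seen in most of its single probesets. Of its 23 probesets, 20 (87%) had all knockdown arrays below all control arrays, against 6.08% of the 267824 probesets in the table. At least 2-fold lower were 19 (82.6%), against 1.51% of all probesets. Of these, 13 were at least 4-fold lower, a share that was not counted over all probesets. The 10 smallest p-values among all probesets belonged to Kdm1a, as did 13 of the smallest 20. These probesets share a gene and the same 6 RNA samples, so they are not replicates of the knockdown. None passed on its own: the smallest limma adjusted p was 0.408, and 0 probesets of any gene passed, while 14208 had an unadjusted p under 0.05. With an intensity trend and a robust prior in limma, 13 of the Kdm1a probesets passed, out of 16 that passed among all 267824.

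The brightest Kdm1a probeset in control samples, 5538790, had log2 values of 8.36, 8.74 and 8.49 in Kdm1a KD samples, against 10.7, 11.2 and 11.2 in control samples. That left 17.7% of the control signal. Probeset 5285088, which had the smallest p in the whole table, read 5.81, 5.62 and 6.09 in Kdm1a KD samples, against 8.69, 8.94 and 8.74 in control samples. The groups were far apart in both cases, and probeset 5285088 kept 13% of its control signal. The largest difference was that of probeset 4731744, with 4.69, 2.35 and 3.12 in Kdm1a KD samples and 7.27, 6.85 and 7.10 in control samples. Its knockdown arrays were widely scattered, with an SD of 1.19, around a mean that was 7.75% of the control level.

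Probesets that were dim in control samples differed least. The 19 probesets with control means from 6.88 upward were all at least 2-fold lower, with log2 differences from -3.69 to -1.29. The other 4 had control means of 3.65 to 5.59 and log2 differences of -0.85, 0.40, -0.68 and -0.29 from the dimmest to the brightest. In the only probeset that was higher, 4453113, the values were 5.22, 5.41 and 4.43 in Kdm1a KD samples, against 4.89, 4.65 and 4.33 in control samples. These groups overlapped. Among the 19 brighter probesets the largest difference, -3.69, stood at a control mean of 7.07, while the brightest 3 differed by -2.50, -2.45 and -2.40. Where the probesets lie within Kdm1a was not analysed here.

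The share of Kdm1a signal that was left depended on how probesets were combined. The deposited gene row gave 29.4%, the mean of the 23 probesets 25.7% and their median per array 16.9%. The limma adjusted p over all genes was 0.0193, 0.0072 and 0.00363 in the same order. In the mean of probesets, taken for 18916 annotated genes, Kdm1a had log2 values of 6.24, 6.01 and 6.23 in Kdm1a KD samples, against 8.08, 8.14 and 8.15 in control samples. The SDs of Kdm1a by that summary were 0.133 in Kdm1a KD and 0.0381 in control samples, against 0.0464 and 0.0489 in the gene row. Its fall of 1.96 (SE 0.121) was the largest of all genes by that summary, and Kdm1a was the 1 gene, or 0.00529%, that passed with a lower value. Without control replicate 2, control replicate 3, knockdown replicate 2 or knockdown replicate 3 its adjusted p was 0.112, 0.101, 0.078 and 0.0809, and 0 genes passed. The count was 2 with the lowest 25% or 50% of genes left out or with array weights, and 3 with both arrays numbered 1 left out.

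**Figure D3:**
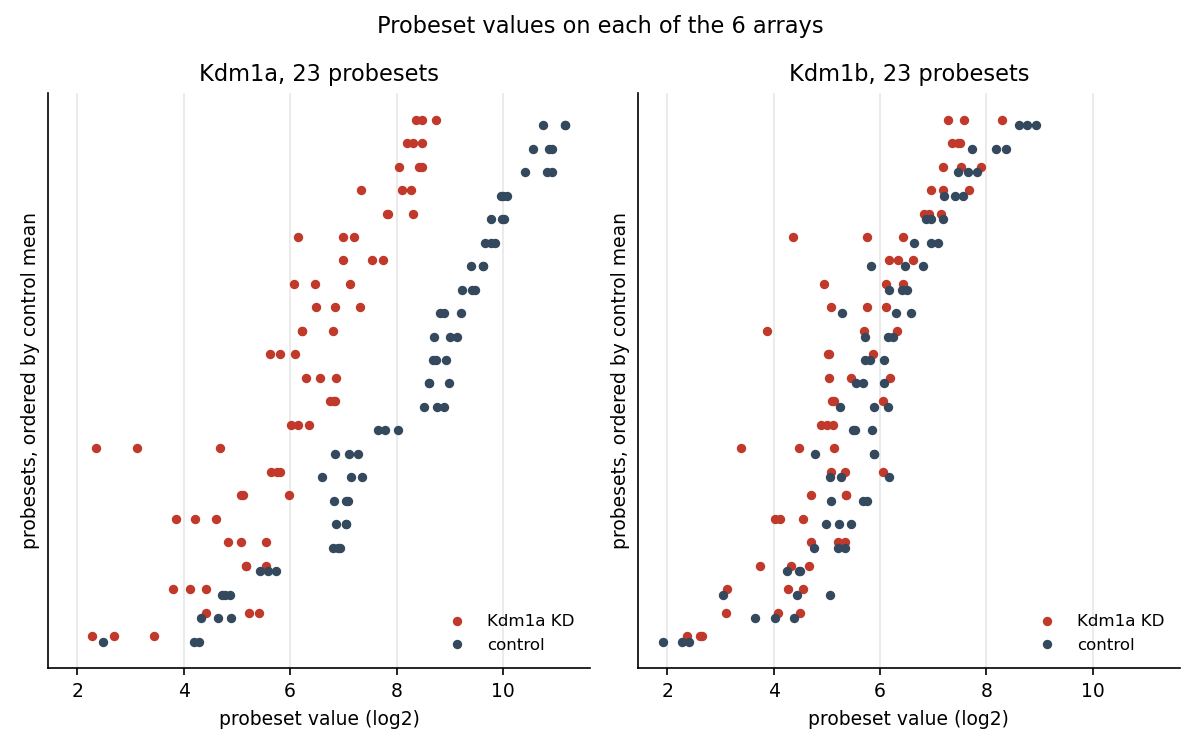
Log2 values of each of the 23 Kdm1a (left) and 23 Kdm1b (right) probesets on the 3 Kdm1a KD and 3 control arrays, 1 line of points per probeset, ordered by control mean with the brightest on top. The groups are apart, with Kdm1a KD lower, in 20 Kdm1a and 5 Kdm1b probesets, while 6.08% of all probesets were lower without overlap.

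Kdm1b probesets were mostly lower too, but by less. Of 23, 21 had a negative difference, a share that was not counted over all probesets. Lower without overlap were 5 (21.7%), against 6.08% of all probesets. A further rule, an unadjusted p under 0.05, found 6 lower ones (26.1%, beside 3.26% of all probesets). At least 2-fold lower were 3 (13%, beside 1.51% of all probesets). Like those of Kdm1a, these probesets share a gene and the same 6 RNA samples, so they are not replicates of the knockdown. The median log2 difference was -0.33, or 79.5% of the control level, while the median over all probesets was -0.02. Without knockdown replicate 2 the Kdm1b median was -0.14.

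Among bright Kdm1b probesets the measured differences varied. The brightest, 4770599, had log2 values of 7.58, 7.28 and 8.29 in Kdm1a KD samples, against 8.60, 8.94 and 8.76 in control samples, a difference of -1.05 (SE 0.311) with no overlap. Probeset 4750677 read 5.75, 4.37 and 6.44 in Kdm1a KD samples, against 6.63, 7.09 and 6.97 in control samples. It had the largest difference of the gene, -1.38 (SE 0.485), and its lowest value was again in knockdown replicate 2. Probesets 4482917, 5468954 and 5333141, with control means of 7.65, 7.39 and 7.0, had differences of only -0.11, -0.11 and -0.04, and their groups overlapped. The 23 differences had an SD of 0.434, of the size of their standard errors, which ran from 0.239 to 0.563. Whether the probesets differed from one another beyond measurement error was not tested. No Kdm1b probeset passed over all probesets (smallest limma adjusted p = 0.908).

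**Figure D4:**
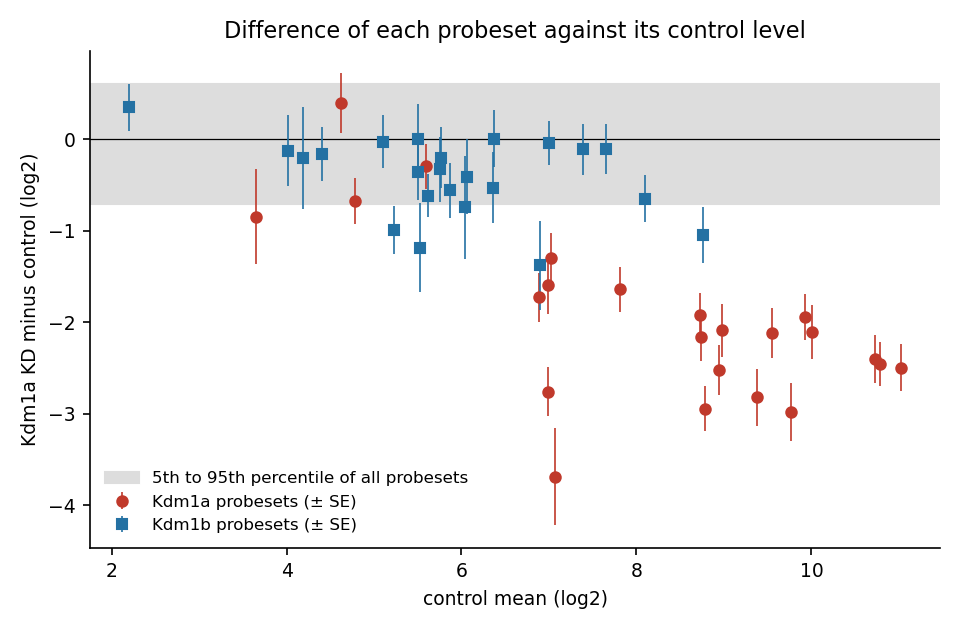
Log2 difference, Kdm1a KD minus control, with limma's SE for each probeset of Kdm1a (circles) and Kdm1b (squares) against its control mean; the grey band, -0.70 to 0.60, holds the central part of all probesets between their 5th and 95th percentiles. Kdm1a probesets with control means from 6.88 upward lie below the band, and most Kdm1b probesets lie inside it.

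Genes that act with KDM1A, or on the same lysine, did not pass the test. Symbols could be given only in the means of probesets, where 25 of 29 listed genes were measured. In these lists 0 genes passed in either direction by limma, 1 was lower at an unadjusted p under 0.05 (3.82% of all genes were), and the median log2 difference was -0.01, against -0.02 over all genes. Of the 25 genes, 4 were lower and 3 higher without overlap of the groups, against backgrounds of 6.16% and 4.51% of all genes.

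Of the 11 measured genes of the KDM1A complex, 6 had negative and 5 positive differences. The lowest was Hdac2, a histone deacetylase of the CoREST complex, with log2 values of 8.52, 8.45 and 8.78 in Kdm1a KD samples, against 9.11, 9.27 and 9.31 in control samples. Its groups did not overlap, and the difference of -0.65 (SE 0.136) had an unadjusted p of 0.0016 but an adjusted p of 0.699 in limma. After quantile normalization the Hdac2 difference was -0.50 (limma adjusted p = 0.653). Rcor1, which encodes CoREST itself, the scaffold that holds KDM1A on nucleosomes, had 8.54, 8.43 and 8.54 in Kdm1a KD samples, against 8.83, 8.68 and 8.71 in control samples. That was a small difference of -0.24 (SE 0.114, limma adjusted p = 0.894), again without overlap, and after quantile normalization it was -0.08. The highest was Hmg20b, a DNA-binding subunit of the complex, at 0.23 (SE 0.129), with groups that did not overlap either.

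Glyr1, which encodes the partner of KDM1B, had log2 values of 7.98, 7.99 and 8.26 in Kdm1a KD samples, against 8.13, 8.0 and 8.12 in control samples. The groups overlapped, and the difference was -0.01 (SE 0.129, limma adjusted p = 0.995). Its sign turned with several alternatives, and the largest positive value was 0.15 after quantile normalization.

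Among the 4 measured flavin amine oxidases outside the pair, differences ran from -0.22 for Maoa, a mitochondrial monoamine oxidase, to 0.22 for Il4i1, a secreted amino acid oxidase, which was at 0.12 with both arrays numbered 1 left out. The groups overlapped for Maoa, whose difference had a wide SE of 0.422, and did not overlap for Il4i1. The 4 jumonji demethylases of the trimethyl mark ranged from -0.23 for Kdm5a to 0.18 for Kdm5d. Kdm5a was lower without overlap of the groups, and was at -0.07 after quantile normalization. Kdm5d was at 0.09 without control replicate 2. The 5 measured methyltransferases of the same lysine ranged from -0.21 for Kmt2c to 0.10 for Kmt2a, the counterpart of the human gene that gives the fusion its MLL part. Kmt2c was lower without overlap of the groups. After quantile normalization Kmt2c was at -0.08 and Kmt2a at 0.25, and without knockdown replicate 3 Kmt2a was at 0.02. Kdm1b, at -0.41 (SE 0.136) in the means of probesets, was lower than all of these except Hdac2, with a limma adjusted p of 0.881.

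**Figure D5:**
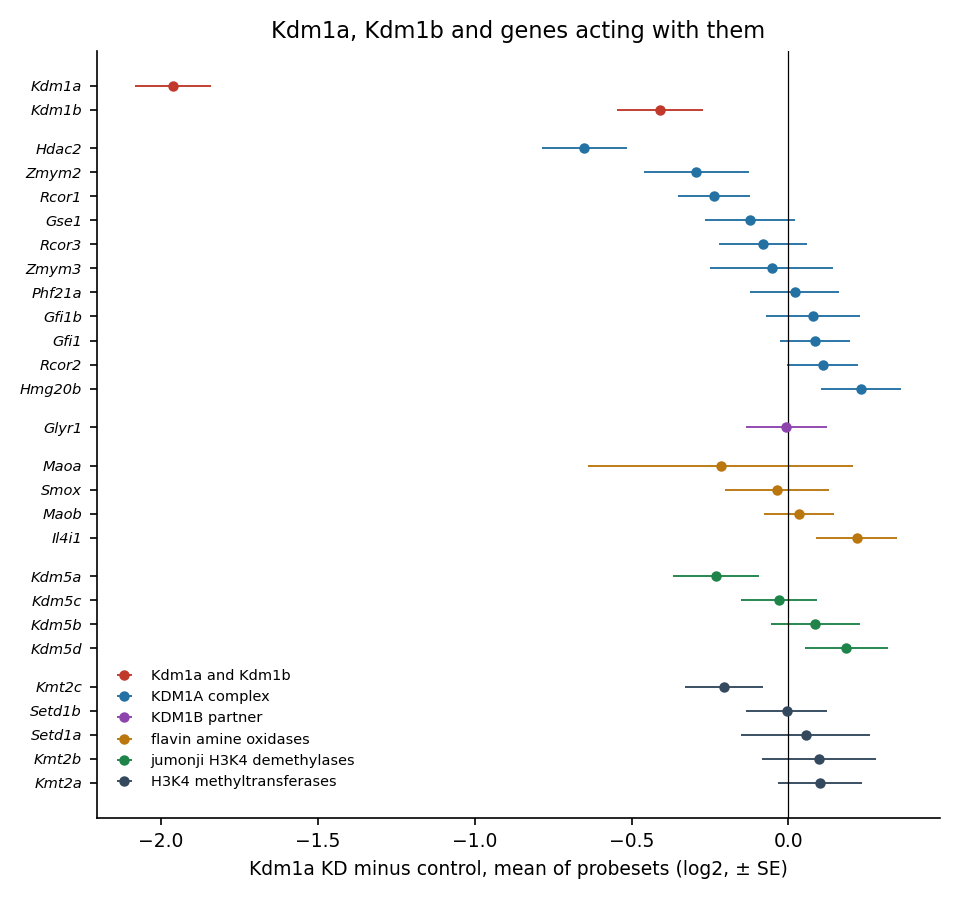
Log2 difference, Kdm1a KD minus control, in the means of probesets, with limma's SE, for Kdm1a, Kdm1b and 25 genes of 5 lists. Kdm1a lies at -1.96, and the listed genes lie between -0.65 (Hdac2) and 0.23 (Hmg20b).

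The profiles most like each gene were ranked by Pearson's r over the 6 arrays among 3429 other genes at or above the median level with an SD of at least 0.25. For Kdm1a they were Nab1, a corepressor of EGR factors (r = 0.994), Grsf1, a mitochondrial RNA-binding protein (0.994), Bnip2 (0.992), Wdfy1 (0.992) and G3bp2, a stress granule protein (0.986). This choice fixes their direction and the distance between their groups, so their values are a description. Grsf1 read 7.11, 7.11 and 7.23 in Kdm1a KD samples, against 8.41, 8.30 and 8.47 in control samples. Its difference was -1.24, and the other 4 differences lay between -0.81 and -0.47.

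For Kdm1b the nearest profiles were Zc3h15 (r = 0.997), Lactb2, a mitochondrial endoribonuclease (0.997), Ergic2, a protein of transport between endoplasmic reticulum and Golgi (0.995), Otulinl (0.993) and Zfp654 (0.988). Lactb2 read 8.13, 7.60 and 7.93 in Kdm1a KD samples, against 8.40, 8.31 and 8.53 in control samples, with the lowest value in knockdown replicate 2 as for Kdm1b. Differences of the 5 genes lay between -0.53 and -0.39. The 6 arrays fall into 2 groups and are shared by all genes, so each r includes the difference between the groups.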

How the data were processed

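RNA of 6 samples was measured on arrays, 1 per sample, so their number limits the precision. The authors deposited log2 values per gene and per probeset, made with RMA per the submitters' processing notes, which give no version. No source used here gives the probe mapping or the genome build, and the log2 scale was read from the range of the values. Columns were assigned through sample descriptions and accessions, groups and replicate numbers through titles. GEO's platform annotation gave 242247 of 267824 probesets 1 symbol, 2077 several and 23500 none here. Older symbols were updated through RefSeq synonyms, and probesets with 1 symbol were averaged into 18916 genes.

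Each table was fitted whole with limma 3.58.1 under R 4.3.3 (lmFit, eBayes, 6 arrays, no covariate, two-sided, Benjamini-Hochberg over the table, threshold 0.05). The fit code was also run on simulated data with independent noise on each array. Those data lack any structure shared between arrays, so the run does not show how the fit behaves on these samples. Genes named were the 2 members, the ends of each pathway list with Rcor1 and Glyr1, and the 5 profiles most like each member. Members and lists were chosen with earlier results of these data known. The means of probesets were added after the annotation was seen. Alternatives were a replicate block, fixed or random, other normalizations, filters, variance models, array weights and left-out arrays. Deviations from the group means correlated at 0.543, 0.0806 and 0.251 between arrays of the same number. The main fit did not take the numbers as pairs, so any factor that arrays of the same number share stays in its residual spread.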

Additional observations from a re-analysis of the deposited data

How the results depend on the processing

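The fall of Kdm1a kept its direction under all 16 alternatives, with gene-row differences from -1.82 to -1.65 and -1.96 in the mean of probesets, and passed in 7 of them, that mean included (limma adjusted p from 0.00578 to 0.328). It did not pass with the replicate block (-1.77, adjusted p = 0.163), after quantile normalization (-1.65, 0.0505) or with both arrays numbered 1 left out (-1.82, 0.328), where the count of rows past the threshold was 0. Leaving out 1 array gave -1.80 to -1.74 and a count of 0 to 0. The block and the left-out arrays leave fewer samples or residual degrees of freedom, and quantile normalization does not. Why the call was lost was not tested in any of these fits. In the means of probesets the same fall passed in 12 of 16, the replicate block included (adjusted p = 0.0295). There the count of genes past the threshold ran from 0 to 3 (2 with the random replicate effect), and Grsf1, chosen by its profile, passed in 4 of 15 alternatives: the random replicate effect (0.0151), both filters (0.0476 and 0.0406) and array weights (0.0446). With an intensity trend and a robust prior, 13 Kdm1a probesets passed, of 16 over the whole table, all lower, where 0 Kdm1a or Kdm1b probesets passed in the other fits of that table; the random replicate effect was not run on it. Kdm1b stayed negative and short of the threshold in all 16 alternatives, from -0.51 to -0.30 (adjusted p from 0.449 to 1.00). The Kdm1a minus Kdm1b difference ranged from -1.44 to -1.23. Its replicate block gave -1.34 with an exact sign-flip p of 0.25, the smallest possible.

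Glyr1 turned positive after quantile normalization (0.15), with both arrays numbered 1 left out (0.064) and with 1 array left out (range -0.101 to 0.0413). Maoa turned positive with 1 array left out (range -0.64 to 0.14). The block ended no other call among the named genes. Without detection calls, the dimmest probesets have no lower limit of measurement.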
